A study of Arabidopsis thaliana with 60 samples.

Results

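H3K27me3, the trimethylation of histone H3 at lysine 27, was compared between Arabidopsis thaliana seedlings carrying the clf-28 allele and Col-0 wild-type seedlings. CLF (CURLY LEAF, AT2G23380) is a methyltransferase subunit of Polycomb repressive complex PRC2. The comparison used 4 of the 60 libraries of the series, 2 of clf-28 and 2 of Col-0, and 2 of its 30 deposited peak lists, since the authors gave 1 paired-end list per genotype that joins both libraries. Members were chosen by their labels (mark, genotype and paired-end sequencing), and peaks and genes were then sorted by fixed rules into lost, trimmed, broken up, kept and new.

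Seedlings were 8 days old in each group and were grown on medium under long days. The clf-28 allele is known as a loss-of-function allele; the plants are in the Col-0 background and still carry SWN, the related methyltransferase. The Col-0 plants are the wild type of the paired-end series. The same series holds H3K27me3 lists of swn-7, of ult1-3 and of ult1-3 joined to either clf-28 or swn-7, all in the Col-0 background, and an older single-end set, made with another chromatin protocol, with 2 Col-0 libraries for H3K27me3 and 2 for K4 trimethylation. From that set 2 ref6-3 libraries for H3K27me3 were read as well. The labels do not say whether the 2 libraries of a genotype came from separate batches of plants. With 1 list per genotype there is no measure of spread and no test, so all values below describe these lists.

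In plants, PRC2 places H3K27me3 over the bodies of silent developmental genes, where the mark forms broad domains that are copied through cell division. CLF and SWN are the catalytic subunits in seedlings and share many targets, and clf mutants are known for curled leaves and early flowering with floral MADS-box genes expressed out of place. At FLC, the mark is known to start in a small nucleation region near the start of the gene and to spread over the body, and CLF is known from earlier work for its role in that spreading.

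The clf-28 list held more peaks that were narrower. It had 5987 peaks over 13.6 Mb, against 5357 peaks over 18.9 Mb in Col-0. The median peak width was 1800 bp in clf-28 and 2600 bp in Col-0, and the widest peak measured 21800 bp in clf-28 and 69800 bp in Col-0. Broad domains, here peaks of at least 3000 bp, made up 1390 peaks (23.2%) in clf-28 and 2299 peaks (42.9%) in Col-0. The score that the authors gave each peak, a whole number of unstated unit, summed to 5.67 M in clf-28 and 9.91 M in Col-0 (M, 1e6), with medians of 376 and 471 per kb in clf-28 and Col-0. The sequencing depth behind the lists is unknown, so a lower depth in clf-28 and a lower level of the mark cannot be told apart from these sums.

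How far lists of this series differ for other reasons was read from the same rules applied elsewhere. The Jaccard index, the shared length over the joint length of 2 lists, was 0.475 for clf-28 and Col-0. It was 0.769 for swn-7 and Col-0 and 0.733 for ult1-3 and Col-0, and the Col-0 list is the same in all 3 comparisons. It was 0.840 between the 2 single-end Col-0 libraries, but only 0.615 and 0.649 between the paired-end Col-0 list and each of them. Lists of 1 genotype made by different protocols thus differed by more than the paired-end lists of swn-7 and ult1-3 did from Col-0.

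Peak by peak, 1261 of the 5357 Col-0 peaks (23.5%) shared no base with a clf-28 peak and were counted as wholly lost. A further 1666 Col-0 peaks (31.1%) were trimmed, meaning that a lone clf-28 peak covered under 80% of their width. Another 564 (10.5%) were broken up, meaning that at least 2 separate clf-28 peaks lay in them, and 1866 (34.8%) were kept at 80% of their width or more. In the other direction, 1240 of the 5987 clf-28 peaks (20.7%) shared no base with a Col-0 peak.

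The same counts were made for other pairs of lists. Against the same Col-0 list, whole loss took 5.73% of Col-0 peaks in swn-7 and 16.0% in ult1-3, break-up took 2.165% in swn-7 and 5.49% in ult1-3, and new peaks made up 13.4% of the swn-7 list and 10.7% of the ult1-3 list. Lists of wild-type seedlings differed as well. Set against single-end libraries 1 and 2, the paired-end Col-0 list lacked 31.6% and 29.4% of their peaks wholly and broke up 11.2% and 8.70%, while 5.02% and 5.73% of its own peaks were new. Single-end library 2 set against library 1 gave 9.48% wholly lost, 8.62% broken up and 3.74% new. Trimming took 565 of the 5357 Col-0 peaks in swn-7 and 910 in ult1-3, beside 1666 in clf-28. Between wild-type lists, the paired-end Col-0 list trimmed 1680 of the 6382 peaks of single-end library 1 and 1415 of the 6518 of library 2. Library 2 trimmed 1175 of the 6382 peaks of library 1. Whole loss in clf-28 (23.5%) thus lay below both values between wild-type lists of different protocols, and break-up (10.5%) lay between the 2 values. The share of new peaks (20.7%) was above that of each pair named here in the direction given. That share depends on which list is set against which. With the wild-type lists swapped, the 31.6% and 29.4% of single-end peaks absent from the paired-end Col-0 list would count as new.

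The fate of a Col-0 peak went with its width. Of the 362 peaks under 1000 bp, 44.2% were wholly lost and none was broken up. Of the 241 peaks of 10000 bp or more, 1.66% were wholly lost and 76.8% were broken up. Between those ends the share of whole loss was lower in each wider class, and trimming was most frequent in peaks of 5000 to under 10000 bp, at 46.6%. The share of length that clf-28 kept hardly followed width and lay between 51.6% and 57.7% in the 6 width classes. Narrow peaks were therefore mostly present or absent as a whole, while broad ones were mostly present in part. A wider peak can hold more separate pieces by construction, so the share broken up is not a rate per kb.

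**Figure D1:**
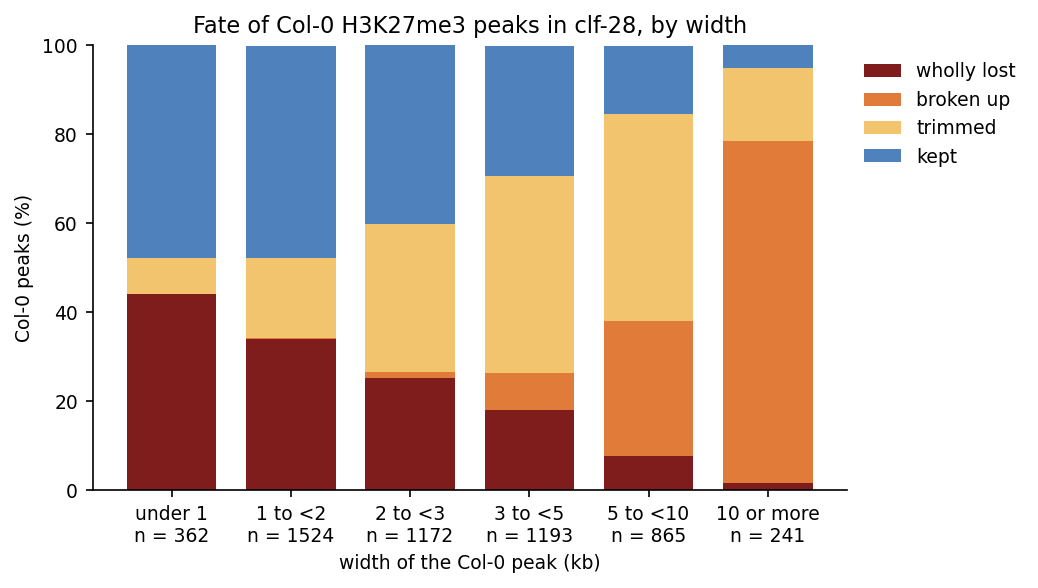
Share of Col-0 H3K27me3 peaks (y axis, %) that were wholly lost, broken up, trimmed or kept in clf-28, by the width of the Col-0 peak (x axis, kb, with the number of peaks below each bar). Whole loss takes 44.2% of the narrowest peaks and 1.66% of the widest, and break-up takes none of the narrowest and 76.8% of the widest.

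Among the 2299 broad Col-0 domains, 287 were wholly lost, 972 trimmed, 544 broken up and 496 kept. Trimmed peaks had a median Col-0 width of 3300 bp, and a median of 55.6% of that width remained in clf-28. Of the 1666 trimmed peaks, 725 (43.5%) were shorter at both ends and 941 were shorter at 1 end. Broken-up peaks had a median width of 7600 bp, of which a median of 62.5% remained. Most of them, 444 of 564, were split into 2 pieces, 87 into 3, 25 into 4, and 8 into 5 or more.

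By length, 10.5 Mb were common to both lists. A further 8.44 Mb, or 44.7% of the Col-0 length, was under peaks in Col-0 alone. Of this, 4.50 Mb lay at the ends of peaks that clf-28 still met, 2.78 Mb in wholly lost peaks and 1.16 Mb in the gaps between pieces. The ends of domains thus held more of the Col-0-only length than whole domains did. Trimmed peaks were shorter by nearly the same length on either side, 1.62 Mb at their lower-coordinate ends and 1.67 Mb at their higher-coordinate ends. The clf-28 list added 3.10 Mb not under Col-0 peaks, 2.01 Mb of it in new peaks and 1.09 Mb beside shared ones.

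**Figure D2:**
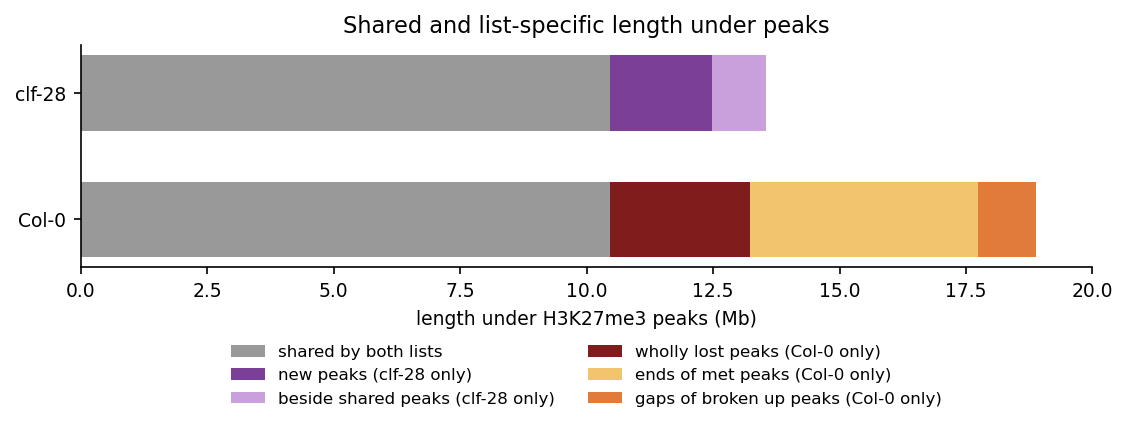
Length under H3K27me3 peaks (x axis, Mb) in the clf-28 list (upper bar) and the Col-0 list (lower bar), divided into what both lists share and what only 1 of them holds. Both bars begin with the same 10.5 Mb, and the Col-0 bar goes on with 8.44 Mb that clf-28 does not cover, of which the ends of peaks (4.50 Mb) are the greatest part.

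The score of a peak also differed between classes. Ranked within the Col-0 list from 0 to 100%, wholly lost peaks had a median rank of 27.8%, kept peaks 41.1%, trimmed peaks 62.9% and broken-up peaks 91.0%. New clf-28 peaks had a median rank of 24.3% within the clf-28 list and a median width of 1400 bp. Wholly lost and new peaks thus both came from the lower-scoring part of their own list. Ranked by score per kb, the medians in Col-0 were 24.5% for wholly lost, 60.8% for kept, 51.5% for trimmed and 74.1% for broken-up peaks, and 18.3% for new peaks in clf-28.

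The widest wholly lost domain covered 23600 bp at chr4:7732601-7756200 and met 7 protein-coding genes. It held TPS12 and TPS13, terpene synthase genes, beside CYP71A19 and CYP71A20, cytochrome P450 genes, and the bodies of all 4 were 0% covered in clf-28 and 100% covered in Col-0. The swn-7 list covered 97.5% of the domain and the single-end Col-0 libraries 87.3% and 83.1%, whereas ult1-3 clf-28 covered none of it. The next was 13000 bp wide at chr2:7361201-7374200, over MEE15 and AT2G16960. The other 3 of the 5 widest were 11000 bp at chr1:19237201-19248200, 11000 bp at chr1:21951801-21962800 with the thioredoxin gene TH7, and 9800 bp at chr1:22495201-22505000. Each of these 5 domains was at 0% in ult1-3 clf-28, and the swn-7 list covered between 97.5% and 100% of each.

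The widest Col-0 domain of all, 69800 bp at chr3:7704001-7773800 with 24 protein-coding genes, was broken into 9 clf-28 peaks. These kept 55.9% of its width, and 19600 bp of the missing length lay in gaps between pieces. At its lower-coordinate end BBX10, a B-box zinc-finger gene, stayed fully covered, at 100% in clf-28 and 100% in Col-0. Its neighbour BBX31 had 36.3% in clf-28 and 100% in Col-0. Near the higher-coordinate end AT3G22050, AT3G22053, AT3G22057 and AT3G22060 were at 0% in clf-28 and 100% in Col-0. The second-widest broken-up domain, 39000 bp at chr1:24442401-24481400, kept 18.97% of its width in 4 pieces. It held the receptor kinase genes RK1 and RK2, both at 0% in clf-28 and 100% in Col-0, while UCL1, an F-box gene in the same domain, had 99.0% in clf-28 and 100% in Col-0. Genes within a domain therefore differed in cover in clf-28, from none to all of the body.

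**Figure D3:**
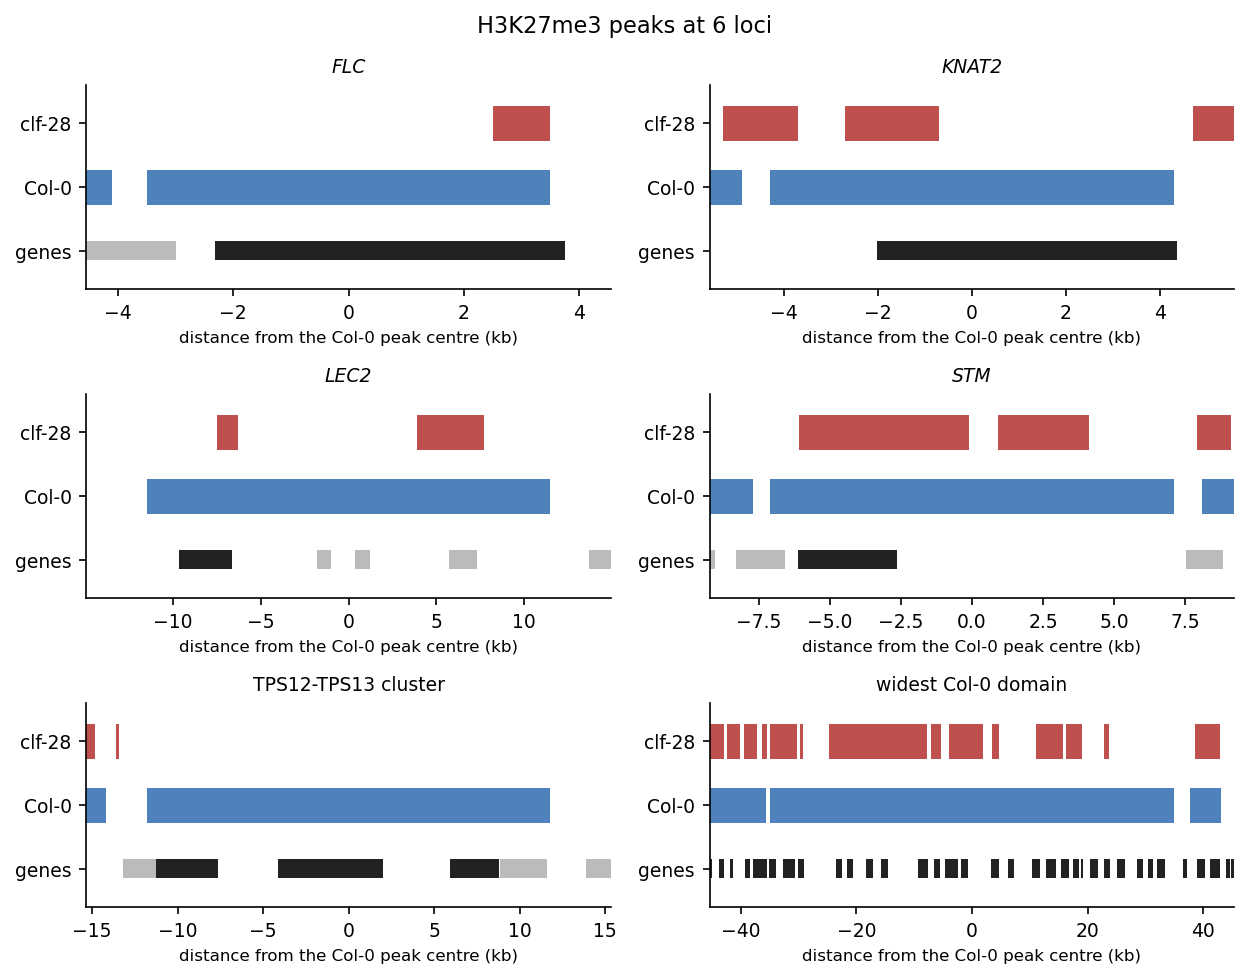
H3K27me3 peaks of clf-28 (red, upper track) and Col-0 (blue, middle track) and protein-coding gene bodies (lower track, dark for genes named in the text, and for all genes in the last panel) around 6 Col-0 domains. The x axis is the distance from the centre of the Col-0 peak in kb. At FLC the clf-28 peak takes the last 1000 bp of a 7000 bp Col-0 peak, at TPS12 and TPS13 no clf-28 peak lies in the domain, and the widest domain holds 9 clf-28 peaks.

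Gene by gene, a protein-coding gene was called marked where peaks covered at least 50% of its body. By this rule 5121 of 27444 genes were marked in clf-28 and 5681 in Col-0, with 4019 marked in both. Of the 5681 genes marked in Col-0, 1662 (29.3%) were lost in clf-28. Of these, 1236 (21.8%) had no cover at all in clf-28, and 426 (7.5%) were partly lost, with some cover under 50%. Of the 21763 genes not marked in Col-0, 1102 (5.06%) were gained, 843 of them new (3.87%), with no cover in Col-0, and 259 extended (1.19%). Genes lay close to the threshold on both sides, since 155 lost genes had 40 to 50% in clf-28 and 199 kept genes had 50 to 60%. By the same rule 8.17% of genes marked in Col-0 were lost in swn-7 and 13.8% in ult1-3, with 644 and 649 gained. The paired-end Col-0 list lacked 23.4% and 22.7% of the genes marked in single-end Col-0 libraries 1 and 2, and library 2 lacked 5.46% of those of library 1.

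Lost genes lay under 1380 Col-0 peaks, of which 1120 met a single lost gene and 75 met 3 or more, so some neighbouring genes were lost together. Among marked genes, 33.5% of those under 1000 bp long were lost, 23.5% of those of 1000 to under 2000 bp, 28.4% of those of 2000 to under 3000 bp and 42.6% of longer ones. Of the 443 lost genes under 1000 bp, 410 were wholly lost, whereas 162 of the 303 lost genes of 3000 bp or more kept part of their cover. By chromosome the lost share lay between 24.7% on chromosome 3 and 31.6% on chromosomes 1 and 5.

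Genes that kept the mark over their bodies mostly lay in narrower peaks. For the 4019 genes marked in both lists, the widest peak over the gene had a median width of 2600 bp in clf-28 and 4000 bp in Col-0. It was narrower in clf-28 for 2808 of them (69.9%), equal for 457 and wider for 754. AG (AGAMOUS, AT4G18960), the floral organ identity gene known as a CLF target, is an example. Cover of its body was 94.0% in clf-28 and 100% in Col-0, while the peak over it was 5800 bp wide in clf-28 (chr4:10382401-10388200) and 11400 bp in Col-0 (chr4:10378601-10390000). STM, the homeobox gene of the shoot meristem, had 99.5% cover in clf-28 and 100% in Col-0. It lay under a peak of 6000 bp in clf-28 and 14200 bp in Col-0. That Col-0 peak held a second clf-28 peak, 0.9 to 4.1 kb from its centre. SEP3, a floral MADS-box gene, was fully covered at 100% in clf-28 and 100% in Col-0, and AGL19, a MADS-box gene that promotes flowering, had 100% in clf-28 and 95.8% in Col-0. The genes of both methyltransferases, CLF and SWN, were at 0% in clf-28 and 0% in Col-0. ULT1, the trithorax-group gene that the series is about, had 71.0% in clf-28 and 74.9% in Col-0. Cover over CLF does not measure its product, so it does not check the genotype.

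Among genes with a symbol, the 12 wholly lost genes with the most covered length held 1 transcription factor, AGL79. MEE15, named for a maternal-effect embryo arrest mutant, had 0% in clf-28 and 84.0% in Col-0. XIE, a class XI myosin motor, had 0% in clf-28 and 54.5% in Col-0, but only 26.8% and 24.5% in the single-end Col-0 libraries. Another 7 of the 12 were enzyme genes, and each had 0% in clf-28.

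FAR4 (fatty acyl-CoA reductase) and CSLB03 (cellulose synthase-like) both had 0% in clf-28 and 100% in Col-0. ASD2, an alpha-L-arabinofuranosidase, also had 0% in clf-28 and 100% in Col-0. PEN3 at AT5G36150, a triterpene synthase, had 0% in clf-28 and 82.7% in Col-0. The list also held the beta-glucosidase genes DIN2, known from dark-treated leaves, and BGLU45, linked to lignin precursors, with 100% and 89.0% in Col-0, the serine carboxypeptidase-like gene SCPL13 with 100%, and the MADS-box gene AGL79 of the AP1/FUL clade with 100%. The last 2 were DAA1, an ATPase gene, with 88.3% in Col-0, and SLAH3, an anion channel gene, with 93.2% in Col-0. Both had 0% in the single-end Col-0 libraries as well, so their Col-0 mark rests on the paired-end list alone. In the 2 single-end ref6-3 libraries DAA1 had 80.4% and 84.3%, and SLAH3 had 0%. All 12 had 0% in ult1-3 clf-28.

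Partly lost genes kept a remnant of the domain. FLC (FLOWERING LOCUS C, AT5G10140), the MADS-box repressor of flowering, had 16.5% of its body covered in clf-28 and 95.9% in Col-0. Its Col-0 peak spanned 7000 bp at chr5:3172201-3179200, and the clf-28 peak spanned 1000 bp at chr5:3178201-3179200, with the same higher-coordinate end. FLC is known to be transcribed towards lower coordinates, so the remnant lay at the side of its start. FLC cover was 99.7% and 96.4% in the single-end Col-0 libraries, 100% in swn-7 and 0% in ult1-3 clf-28.

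KNAT2 (AT1G70510), a KNOX homeobox gene of the meristem, had 20.6% in clf-28 and 98.8% in Col-0, with a remnant of 2000 bp in clf-28 (chr1:26575801-26577800) inside a Col-0 peak of 8600 bp (chr1:26574201-26582800). That Col-0 peak was also met at its lower-coordinate end by another clf-28 peak, from -5.3 to -3.7 kb of its centre. LEC2 (AT1G28300), a B3-domain regulator of embryo development, had 29.1% in clf-28 and 100% in Col-0. Its Col-0 domain of 23000 bp (chr1:9895001-9918000) held a clf-28 peak of 1200 bp over the gene (chr1:9899001-9900200). The domain held a second clf-28 peak away from the gene, 3.9 to 7.7 kb from the domain centre. ATHB-15, a leaf and vascular HD-ZIP III gene, had 23.6% in clf-28 and 100% in Col-0, but only 52.7% and 48.8% in the single-end Col-0 libraries. These 4 regulators were wholly or largely covered in the paired-end Col-0 list and had 16.5% to 29.1% in clf-28.

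The other partly lost genes with the most covered length included PHO1, a phosphate exporter of the root, at 23.1% in clf-28 and 100% in Col-0, and CNGC4, a cyclic nucleotide-gated channel, at 15.8% in clf-28 and 98.05% in Col-0. MLO14, of the MLO family of membrane proteins, had 0.455% in clf-28 and 100% in Col-0. LAS1, lanosterol synthase, had 10.4% in clf-28 and 85.2% in Col-0. XRCC4, which acts in the joining of broken DNA ends, and the ABC transporters ABCG38 and ABCG13 completed the group, with 6.99%, 12.6% and 14.1% in clf-28. Their cover in Col-0 was 82.5% for XRCC4, 76.0% for ABCG38 and 100% for ABCG13, but in the single-end Col-0 libraries it lay between 6.52% and 48.8% for all 3 genes.

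Listed developmental genes were mostly kept. The 9 lists held 190 genes, mostly regulators but also seed storage, oleosin, auxin carrier and auxin synthesis genes. Of these, 111 were marked in clf-28 and 120 in Col-0. Of the 120, 17 were lost (14.2%, beside 29.3% of all marked genes), and 3 of these wholly. In the floral MADS-box list 3 of 16 marked genes were lost, AGL79, SHP1 and SHP2. SHP1 and SHP2, which set the valve margin of the fruit, had 36.7% and 48.4% in clf-28, against 88.1% and 100% in Col-0. The peak over SHP2 was 2200 bp wide in clf-28 and 7200 bp in Col-0. In ult1-3 clf-28, SHP1 had 36.7%, SHP2 had 53.5% and AGL79 had 0%. In clf-28, 11 other marked genes of the list had at least 90% cover, and SEP4 and AGL6 stayed above the threshold with 52.6% and 58.4% in clf-28, against 90.9% and 83.9% in Col-0.

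Of 19 marked flowering-time genes 5 were lost (26.3%, beside 29.3% of all marked genes). Beside FLC these were its relative MAF5, with 23.5% in clf-28 and 54.7% in Col-0, the mobile flowering signal FT, with 45.6% in clf-28 and 77.2% in Col-0, and the MADS-box genes AGL17 and AGL42. AGL17 had 45.3% in clf-28 and 100% in Col-0, and AGL42 had 44.3% in clf-28 and 100% in Col-0. At FT the clf-28 list held a peak of 1800 bp (chr1:24332801-24334600) where Col-0 had a domain of 18400 bp (chr1:24332201-24350600). Both repressors and promoters of flowering thus stood among the lost members. MAF5 was near the threshold in Col-0, and its cover was 64.4% and 39.1% in the single-end Col-0 libraries. The ult1-3 clf-28 list covered 0% of FLC and of MAF5, but 68.5% of FT, 90.8% of AGL17 and 100% of AGL42. The last 3 were thus lost in clf-28 but marked in ult1-3 clf-28.

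In the shoot meristem and boundary list, 2 of 14 marked genes were lost, KNAT2 and BRC2, a TCP gene of axillary buds (named TCP12 in the gene table), which had 47.2% in clf-28 and 100% in Col-0. BRC2 had 83.3% in ult1-3 clf-28, and KNAT2 had 14.3%. The embryo and seed list lost LEC2 and OLEO2 of 19 marked genes. OLEO2, an oil-body oleosin, had 0% in clf-28 and 100% in Col-0, but 0% in both single-end Col-0 libraries and in swn-7 and ult1-3. The auxin list lost 3 of 12 (25%, beside 29.3% of all marked genes), the carriers PIN6 and PIN8 and the synthesis gene YUC6. PIN8 had 0% in clf-28 and 81.6% in Col-0, PIN6 36.3% in clf-28 and 70.6% in Col-0, and YUC6 31.3% in clf-28 and 67.1% in Col-0. Cover in ult1-3 clf-28 was 0% for PIN8, 70.6% for PIN6 and 46.2% for YUC6. The leaf polarity list lost ATHB-15 alone of 12, and the root and epidermis list lost GL3, a bHLH gene of trichome patterning, with 47.6% in clf-28 and 80.99% in Col-0, of 9. LEC2 had 29.1% in ult1-3 clf-28, and OLEO2, ATHB-15 and GL3 had 0%. No marked member was lost among 13 floral meristem and organ genes or 6 Polycomb and Trithorax genes. Of 14 housekeeping genes, none was marked in clf-28 or in Col-0.

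**Figure D4:**
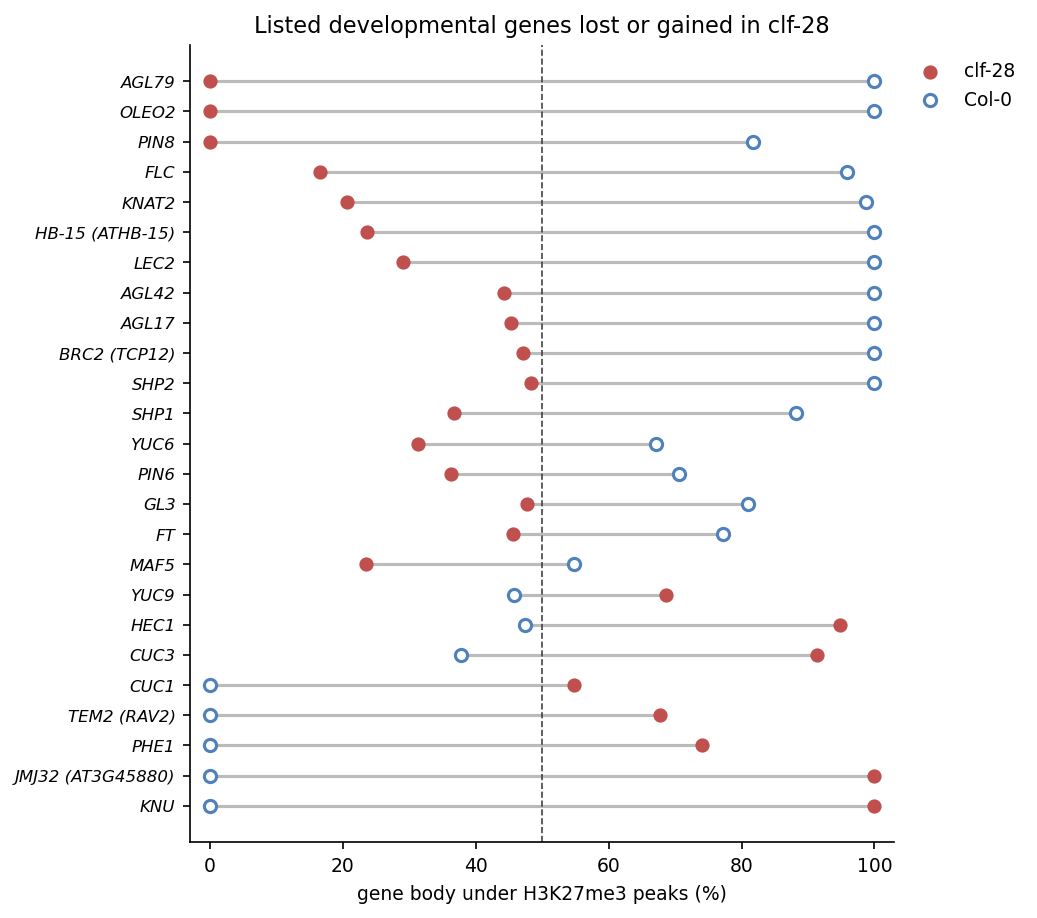
Percent of the gene body under H3K27me3 peaks (x axis) in clf-28 (filled red) and Col-0 (open blue) for the 25 listed genes that crossed the 50% threshold (dashed line), named as in the lists with the table's symbol in brackets where it differs. AGL79, OLEO2 and PIN8 have no cover in clf-28, 14 genes keep a part, and KNU, JMJ32, PHE1, TEM2 and CUC1 have cover in clf-28 alone.

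Of 70 listed genes not marked in Col-0, 8 were gained (11.4%, beside 5.06% of all unmarked genes). KNU, a zinc-finger gene of floral meristem termination, had 100% in clf-28 and 0% in Col-0, and the clf-28 peak was 2400 bp wide (chr5:4521801-4524200). KNU was also fully covered in both single-end Col-0 libraries and in swn-7. PHE1, an imprinted MADS-box gene of the endosperm, had 74.1% in clf-28 and 0% in Col-0, and 100% in each single-end Col-0 library. CUC1 and CUC3, NAC genes of organ boundaries, had 54.7% and 91.3% in clf-28, against 0% and 37.7% in Col-0, and both were at 54.7% or more in the single-end Col-0 libraries. For these 4 genes the wild type itself differed between the paired-end list and the single-end libraries.

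TEM2, a repressor of flowering (RAV2 in the gene table), and JMJ32 (AT3G45880), a jumonji demethylase gene, were different. TEM2 had 67.7% in clf-28 and 0% in Col-0, and JMJ32 had 100% in clf-28 and 0% in Col-0. Both were also at 0% in the single-end Col-0 libraries and in swn-7. The clf-28 peak over JMJ32 was 10600 bp wide (chr3:16863201-16873800) and met a Col-0 peak outside the gene, so it is not a new peak. The last 2 were HEC1, a bHLH gene of the gynoecium, with 94.8% in clf-28 and 47.4% in Col-0, and YUC9, an auxin synthesis gene, with 68.6% in clf-28 and 45.7% in Col-0. In Col-0 these last 2 lay just under the threshold. In single-end Col-0 libraries 1 and 2, YUC9 had 63.4% and 86.2%, and HEC1 had 48.1% and 63.2%. YUC9 was thus marked in both libraries, and HEC1 in library 2. In ult1-3 clf-28, KNU had 100%, TEM2 89.3% and PHE1 86.7%, while JMJ32, CUC1, CUC3, HEC1 and YUC9 had 0%.

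Lost genes were also counted by family, as named by gene symbol. Of 33 defensin-like genes marked in Col-0, 23 were lost (69.7%, beside 29.3% of all marked genes), 19 of them wholly, under 17 Col-0 peaks. Such genes code for cysteine-rich peptides, many of them known from pollen and pistil. SCRL6, SCRL2 and LCR54 each had 0% in clf-28 and 100% in Col-0. Of the 23, 21 were marked in both single-end Col-0 libraries and 22 in swn-7. RALF-like peptides, a family added after the lost genes had been seen, lost 11 of 16, under 9 peaks. The neighbours RALFL10, RALFL11 and RALFL12 each had 0% in clf-28 and 100% in Col-0. Marked genes of both families were short, with median lengths of 598 bp and 532.5 bp beside 1610 bp for all marked genes (the lost share was 33.5% for all marked genes under 1000 bp). CLE peptides, also short, lost 5 of 19 marked genes (26.3%), near the 29.3% of all marked genes.

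Among enzyme families, beta-glucosidases lost 10 of 25 marked genes and serine carboxypeptidase-like genes 8 of 20. This was 40% each, beside 29.3% of all marked genes, and both families were added after the lost genes had been seen. Peroxidases lost 5 of 12 (41.7%), lipid transfer proteins 4 of 9 (44.4%) and cytochrome P450 genes 24 of 104 (23.1%). Of the 4 lost lipid transfer genes only 1 was marked in both single-end Col-0 libraries. SAUR auxin-response genes lost 7 of 21 (33.3%).

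Among transcription factor families, MADS-box genes lost 14 of 49 (28.6%, beside 29.3% of all marked genes) and homeobox genes 10 of 45 (22.2%). NAC genes lost 9 of 47 (19.1%), MYB genes 14 of 74 (18.9%) and WRKY genes 6 of 37 (16.2%). The LBD family lost 1 of 20 marked genes, LBD32, and the WOX family none of 11. None of 8 marked seed storage protein genes was lost, and 1 of 9 oleosins was, OLEO2.

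New clf-28 peaks were narrow and lay apart from Col-0 domains. Their median distance to the nearest Col-0 peak was 6200 bp, and 22.6% lay within 2000 bp of one. A protein-coding gene was met by 89.3% of them, close to the 89.0% of all clf-28 peaks. Wholly lost Col-0 peaks met one in 68.6% of cases, beside 85.9% of all Col-0 peaks, and 23.5% of them met no annotated gene, beside 8.79% of all Col-0 peaks.

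The widest new peaks were of another kind. The 5 widest met no protein-coding gene but lay over pseudogenes, 4 of them on chromosome 5. The 3 widest measured 12600 bp (chr5:11934201-11946800), 11600 bp (chr5:11686001-11697600) and 10800 bp (chr5:11321001-11331800), and each held a copy of MIR854, a miRNA gene family known to lie in Athila retrotransposon sequence. MIR854b, MIR854d and MIR854e had 100% in clf-28 and 0% in Col-0, and MIR854a and MIR854c had 0% in clf-28 and 0% in Col-0. The swn-7 list and both single-end Col-0 libraries covered none of these 3 peaks, and ult1-3 clf-28 covered between 96.6% and 100% of each. The 5 had ranks of 97.4% to 100% by score in the clf-28 list, unlike new peaks in general. Copies of a repeat can share reads, so the exact copies involved are uncertain.

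Among gained genes with a symbol, the 12 with the most covered length held the ABC transporter PEN3 at AT1G59870, which acts in defence against fungi, with 94.3% in clf-28, and the auxin response factors ARF8 and ARF1 with 69.1% and 62.2%. DIN10, known from dark-treated leaves, had 98.9%, IVD, an enzyme of leucine breakdown, 89.1%, and VPS11, of vacuolar transport, 82.0%. The calcium pump gene ACA1 had 77.0%, and EMB2756 and PDE327, named for embryo and pigment defects, had 63.6% and 100%. All had 0% in Col-0. These 9 genes had 0% in both single-end Col-0 libraries, and their K4 cover in Col-0 ranged from 17.7% to 98.9%. The other 3 differed. BLH2, a BELL homeobox gene, had 86.3% in clf-28 and was 82.4% and 90.2% covered in the single-end Col-0 libraries. AGO3, an ARGONAUTE gene, had 76.1% in clf-28 and 58.2% and 71.7% in those libraries, and SBT3.3, a subtilase gene, had 100% in clf-28 and 27.96% and 33.8% in them. These 3 had 0% in the paired-end Col-0 list too. In ult1-3 clf-28, DIN10 had 56.4% and BLH2 37.0%, and the remaining genes of the 12 had 0%. PEN3 at AT1G59870 had 59.6% in ult1-3.

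Some families had more gained members than the 5.06% of all unmarked genes. Nuclear genes of the light-harvesting complexes and photosystems, a family added after the gained genes had been seen, had 9 of 45 gained (20%). LHCA4, an antenna protein of photosystem I, had 86.2% in clf-28 and 0% in Col-0, and PSBR, of photosystem II, had 80.2% in clf-28 and 0% in Col-0. None of these 9 was marked by H3K27me3 in both single-end Col-0 libraries, while all 9 had K4 cover of at least 50% in both K4 libraries. Aquaporins, added in the same way, had 6 of 24 gained (25%), with PIP1B at 72.7% in clf-28 and 0% in Col-0. Cytochrome P450 genes had 19 of 136 gained (14.0%). The ult1-3 clf-28 list marked none of the 9 gained photosystem genes, 1 of the 6 aquaporins and 4 of the 19 cytochrome P450 genes. It marked 9.13% of all new genes and 17.8% of all extended genes.

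The K4 mark in wild-type seedlings differed between the gene classes. The labels write the K4 antibody target as histone H4, and the mark is called K4 trimethylation here. Of the 843 new genes, 46.7% and 48.5% had K4 cover of at least 50% in Col-0 libraries 1 and 2. The shares were 11.4% and 12.8% for wholly lost genes, 11.3% and 13.0% for kept genes, and 27.4% and 28.8% for genes marked in neither list. K4 peaks had median widths of 1000 and 1200 bp, so a longer gene reaches 50% cover less easily. Median gene lengths were 1836 bp for new, 1420 bp for wholly lost and 1591 bp for kept genes. For genes marked in neither list the median was 2246 bp, and the part of gene length in these shares was not tested. New clf-28 peaks met a K4 peak in 61.3% and 62.5% of cases, beside 28.5% and 30.5% of the clf-28 peaks that met a Col-0 peak. They were not compared with other sequence outside Col-0 peaks. Genes marked in neither list had median K4 cover of 32.5% and 33.1%, so most of those genes met a K4 peak too. No K4 list of clf-28 was analysed here, so K4 and H3K27me3 were not read in the same plants.

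Other H3K27me3 lists that the rule did not use were read for the same genes. Of the 1236 wholly lost genes, 952 (77.0%) were marked in both single-end Col-0 libraries and 217 (17.6%) in neither. Most wholly lost genes thus carried the mark in Col-0 under a second protocol. Among the 843 new genes, 188 (22.3%) were marked in both single-end Col-0 libraries and 583 (69.2%) in neither.

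The ult1-3 clf-28 list, made from other plants with the same allele, marked 34 of the 1236 wholly lost genes (2.75%) and 2690 of the 4019 kept genes (66.9%). Of the 426 partly lost genes it marked 74 (17.4%). It marked 77 of the 843 new genes (9.13%), beside 0.658% of genes marked in neither clf-28 nor Col-0. Nearly all wholly lost genes were thus unmarked there too, and so were most new genes. The ult1-3 clf-28 list is itself shorter, with 3703 peaks over 9.55 Mb, and it marked 3057 genes in all. The swn-7 list marked 1008 of the wholly lost genes (81.6%).

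Single peaks gave the same order. The ult1-3 clf-28 list met 3.81% of wholly lost Col-0 peaks and 67.5% of those that clf-28 met, and the swn-7 list met 85.3% and 97.02% of the same classes. New clf-28 peaks were met by ult1-3 clf-28 in 16.5% of cases, by swn-7 in 19.5%, and by the single-end Col-0 libraries in 31.5% and 35.8%. Of the 204 new peaks that ult1-3 clf-28 met, 79 lay over tRNA genes, out of 89 new peaks over such genes. Of the 1240 new peaks, 546 (44.0%) met a K4 peak in both Col-0 libraries and no single-end Col-0 H3K27me3 peak, and 374 (30.2%) met a single-end Col-0 H3K27me3 peak in both libraries.

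**Figure D5:**
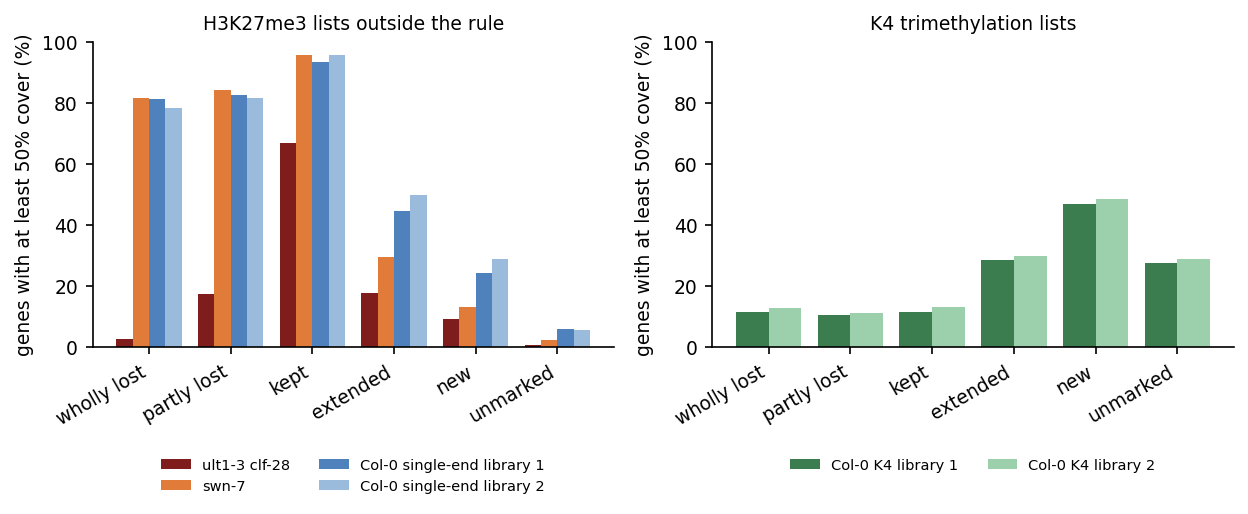
Share of genes in each class (x axis) with at least 50% of the body under peaks (y axis, %) in H3K27me3 lists that the classes were not made from (left) and in Col-0 K4 trimethylation lists (right). Wholly lost genes have 2.75% in ult1-3 clf-28 beside 66.9% for kept genes, and new genes have the highest K4 shares, 46.7% and 48.5%.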

How the data were processed

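ChIP-seq of H3K27me3 was done on 8-day seedlings. The submitters' processing notes name TAIR10 as the build and, for paired-end libraries, SICER 1.1, bedtools 2.30.0, Picard 2.26.10, SAMtools 1.16.1 and BWA 0.7.17-r1188. Parameters, and the way 2 libraries became 1 list, are not given in the sources used. Each of the 2 genotypes also has input libraries, which were not analysed here. The paired-end lists deposited by the authors carry a score per peak, a whole number of unstated unit, which served to rank peaks inside their own list. The single-end lists deposited by the authors carry read counts per peak, which were not tested. Of 30 lists 12 were used. These include the 2 single-end H3K27me3 lists of ref6-3, of which only the values at DAA1 and SLAH3 are given. The authors' depth is unknown for the paired-end lists.

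Peaks lie on 200 bp windows. Cover is the percent of a gene body under peaks, with genes from a RefSeq table of assembly TAIR10.1 (27444 protein-coding, 37899 of all kinds), which holds no strand and no sequence. Genes and K4 peaks aligned best at a shift of 0 in 50 of 52 windows and within 100 bp in all. Calls were made with Python 3.11.15, numpy 2.4.6 and pandas 2.3.3, and the rules were tested on simulated lists. There was no test, since there is 1 list per genotype.

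Named genes were the 12 wholly lost, 10 partly lost and 12 gained genes with a symbol and the most covered length lost or gained, list members that were called or whose cover differed by 25 points or more, known CLF targets, and genes under the 5 widest lost and new peaks. Family patterns were narrowed after values were seen, to drop genes of other kinds with similar names. Examples from families and from broken-up domains were chosen after their values were seen. The members, rules and gene lists were chosen with earlier results of these data known. All 204 list entries were found by symbol, synonym or locus tag.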

Additional observations from a re-analysis of the deposited data

How the results depend on the processing

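The counts were made again under 10 alternative settings, which gave 40 values, and 30 of these stayed within 1.5 times the reported count. The 30 include the values of 1 setting that could not change them, an overlap of at least 200 bp. Peaks lie on 200 bp windows, so any overlap is at least that long. The 1662 lost genes, the 1866 kept peaks and the difference in covered length (-5.34 Mb, clf-28 minus Col-0) stayed within that range throughout, and no value reversed. The difference in marked genes, -560 as reported, was -212 at a minimum cover of 20%, -1033 at 80%, -895 over all annotated genes and -907 when each list was limited to its 4017 highest-scoring peaks. Gained genes numbered 674 at 80% cover, and 703 when the single-end Col-0 libraries also had to lack the mark, instead of 1102. With 4017 peaks per list, instead of 5357 in Col-0 and 5987 in clf-28, 335 Col-0 peaks were broken up instead of 564. New clf-28 peaks numbered 764 instead of 1240, and both counts were out of fewer peaks. Covered length differed by -5.85 Mb, 1434 of the 1662 lost genes were again lost, and 689 of the 1102 gained genes were again gained. Wholly lost peaks numbered 2054 where an overlap of under 50% of the peak counted as loss, instead of 1261. Trimmed peaks numbered 962 with a limit of 60% of the width instead of 80%, against 1666. The causes of these differences were not tested. No paired analysis was possible because each genotype has 1 list that holds both libraries, and for the same reason no library could be left out.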

Other observations

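Gene kinds other than protein-coding were read by the same rule. Of 326 miRNA genes, 67 were marked in clf-28 and 104 in Col-0. Of the 104, 46 were lost (44.2%) and 45 of these wholly, under 36 Col-0 peaks, and 44 of the 46 were marked in both single-end Col-0 libraries. The lost share was 29.3% for protein-coding genes, 46.9% for lncRNA genes, 45.7% for other ncRNA genes, 56.0% for misc_RNA genes, 60% for 10 marked snRNA genes and 25% for tRNA genes. MIR169i, MIR169j, MIR169k and MIR169l, a cluster whose products are known to target NF-Y subunit genes, each had 0% in clf-28 and 100% in Col-0. MIR395a, MIR395d, MIR395e and MIR395f, of sulfate starvation, each had 0% in clf-28 and 100% in Col-0. The phosphate-starvation genes MIR399b and MIR399f, the age-pathway genes MIR156b and MIR156d, and MIR172a, which targets AP2-like flowering repressors, had 0% in clf-28 and 100% in Col-0 as well. The swn-7 list marked 45 of the 46 lost miRNA genes and the ult1-3 clf-28 list 5. These genes were named after their values were seen. Neighbouring miRNA genes share a peak, and a miRNA gene is short beside a peak, so it is mostly covered in full or not at all.

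Of 625 tRNA genes, 144 were marked in clf-28 and 56 in Col-0. The 102 gained tRNA genes (17.9% of 569 not marked in Col-0, beside 5.06% of protein-coding genes) lay under 98 separate clf-28 peaks and on all 5 chromosomes, and 14 tRNA genes were lost. The number of marked tRNA genes was 296 in ult1-3 clf-28, 68 in swn-7, 45 in ult1-3 and 19 in each single-end Col-0 library. Of the 102 gained, 85 were also marked in ult1-3 clf-28. The 89 new peaks over tRNA genes had a median width of 1000 bp and a median score rank of 12.2%, beside 24.3% for all new peaks, and 54 of them met a K4 peak in both Col-0 libraries. The part that read mapping or background at tRNA genes has in these counts was not tested.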
